A study of Arabidopsis thaliana with 8 samples.

Results

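Transcript levels in Arabidopsis thaliana seedlings that lack both SDG8 and SDG26 were set against those in seedlings that lack SDG8 alone, which gives the transcripts that differ when the sdg26 mutation is added to an sdg8 mutant. The comparison used 4 of the 8 arrays of the series, namely 2 of the sdg8 sdg26 double mutant and 2 of the sdg8 single mutant. The other 4 arrays, 2 of sdg26 and 2 of wild type (Col), entered the same model and give the effect of sdg26 where SDG8 is present. Plants of all 4 genotypes had been grown for 6 days at 22 °C with 16 h of light and 8 h of darkness. The labels give the tissue as the aerial part, and they name no other treatment. The mutant alleles, and whether each line is 1 isolate, are not stated in the sources used here. A probe entered where it was well above background on both arrays of sdg8 sdg26, on both arrays of sdg8, or on all 4. That left 32968 of 43603 probes, and the 27659 of them that have a gene gave 20051 genes.

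SDG8 and SDG26 belong to the SET-domain group of histone methyltransferases, and SDG8 is a main enzyme for methylation of histone H3 at lysine 36 in Arabidopsis, a mark found over transcribed gene bodies. SDG8 is known for keeping the MADS-box floral repressor FLC and its relatives, the MAF genes, active, so that its loss makes plants flower early. Loss of SDG26 is known for the opposite phenotype, late flowering. FLC and the MAF genes repress FT, the mobile flowering signal, and SOC1, a MADS-box activator that FT and other inputs switch on.

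A level is the log2 signal of a gene after subtraction of its array's 75th percentile, and only levels of 1 gene can be compared with each other. Differences are sdg8 sdg26 minus sdg8 on that log2 scale, with the standard error that limma gave when all 8 arrays were fitted together (n = 2 arrays for each genotype). "Rose" and "fell" are used only where the Benjamini-Hochberg adjusted p over all genes tested was under 0.05. Replicate arrays correlated at 0.986 in sdg8 sdg26 and 0.988 in sdg8. Of the probes, 77.1% and 78.4% were well above background on the 2 sdg8 sdg26 arrays, against 71.9% and 72.7% on the 2 sdg8 arrays. Both sdg8 sdg26 arrays lay on 1 slide, together with both sdg26 arrays, and both sdg8 arrays lay on another slide, so slide and genotype cannot be told apart in any difference between sdg8 sdg26 and sdg8. In whole tissue, fewer cells of a type and less RNA per cell cannot be told apart either.

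Between sdg8 sdg26 and sdg8, 63 of 20051 genes differed (0.314%), of which 45 rose (0.224%) and 18 fell (0.0898%). The difference as measured was at least 2-fold in 60 of the 63, and all 63 are annotated as protein-coding. In 25 of the rises neither sdg8 array, and in 3 of the falls neither sdg8 sdg26 array, was well above background. The measured fold of those genes is not a firm size, and the filter let them in only through the genotype where they were well above background. An unadjusted p under 0.05 was reached by 2772 genes, 1689 with a higher and 1083 with a lower level in sdg8 sdg26, where 1003 would be so by the threshold alone. The median difference over all genes tested was 0.04. Both sdg8 sdg26 arrays lay above both sdg8 arrays for 27.6% of all genes and below them for 18.1%. The excess of rises over falls moved with the processing, since quantile normalization gave 26 rises and 24 falls, and normexp correction on the median background of an array gave 51 rises and 64 falls. The count also rested on single arrays. It was 2 without sdg8 replicate 1, 20 without sdg8 replicate 2, 16 without sdg8 sdg26 replicate 1, 98 without sdg8 sdg26 replicate 2 and 38 without either sdg26 array. No single gene of the 63 was called in all 8 fits that leave out 1 array.

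**Figure D1:**
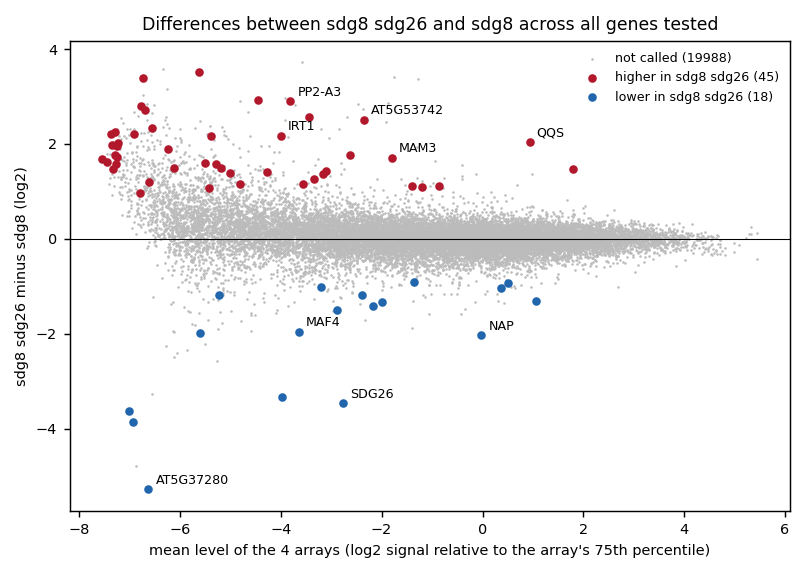
Difference between sdg8 sdg26 and sdg8 (vertical axis, log2) against the mean level of the 4 arrays (horizontal axis, log2 relative to the array's 75th percentile) for the 20051 genes tested. Red points are the 45 genes that rose and blue points the 18 that fell; most rises lie at low levels, where the cloud of uncalled genes is widest.

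SDG26 itself checked the genotypes. Its level was -4.00 and -5.00 in sdg8 sdg26, against -1.07 and -0.996 in sdg8, and the arrays of the genotypes did not overlap. SDG26 transcript fell by 3.47 ± 0.33 (11.1-fold lower, limma adjusted p = 0.0155). The adjusted p was 0.0592 without sdg8 replicate 1 and 0.0701 without sdg8 replicate 2. In sdg26 it was -5.40 and -5.98, against -1.09 and -1.04 in wild type, so both genotypes labelled as sdg26 mutants were low and both others were high. Whether the probe lies inside the mutated stretch is not stated in the sources used here. SDG8 transcript was low in both genotypes compared, at -2.71 and -2.95 in sdg8 sdg26 and -3.59 and -3.22 in sdg8, whereas it was -0.38 and -0.49 in sdg26 and -0.63 and -0.36 in wild type. The SDG8 difference between sdg8 sdg26 and sdg8, 0.57 ± 0.18, did not pass the test (limma adjusted p = 0.227).

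Among floral repressors, MAF4, a close relative of FLC, was the gene that fell. MAF4 was at -4.18 and -5.07 in sdg8 sdg26, against -2.71 and -2.63 in sdg8, a decrease of 3.88-fold. The difference was -1.96 ± 0.27 with a limma adjusted p of 0.0492, and it no longer passed with the slide as a random block (adjusted p = 0.0687) and passed in 2 of the 8 fits that leave out 1 array. MAF4 stood at -3.20 and -3.36 in sdg26 and at -0.69 and -0.52 in wild type, so that the levels of the single mutants lay between those of the double mutant and wild type. No other of the 14 floral repressors measured passed the test, and the median difference of the list was -0.07. FLM, which acts with SVP in repression by ambient temperature, differed by -0.01 ± 0.19 and MAF5 by 0.17 ± 0.16. SMZ, an AP2-type repressor of FT, was higher on both sdg8 sdg26 arrays, with a difference of 0.55 ± 0.16 and an adjusted p of 0.209.

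FLC could not be compared between these genotypes, because it was well above background on 1 of the 4 arrays only, sdg8 sdg26 replicate 1. Its measured level was -5.26 and -6.83 in sdg8 sdg26 and -7.10 and -6.52 in sdg8, against -0.75 and -0.60 in sdg26 and -1.33 and -1.24 in wild type. FLC was therefore near background wherever SDG8 was mutated and far above it in the genotypes with SDG8.

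The floral activators as a list had 0 of 15 measured members called, with a median of 0.07. FT was at -2.77 and -2.55 in sdg8 sdg26 and at -3.52 and -3.44 in sdg8, which gave a difference of 0.82 ± 0.19 that did not pass (adjusted p = 0.146). In sdg26 FT was at -4.88 and -5.39, against -5.26 and -5.43 in wild type, so its level was highest in the double mutant. CO, the photoperiod factor that activates FT, differed by 1.20 ± 0.26 (adjusted p = 0.137), with both sdg8 sdg26 arrays above both sdg8 arrays. SOC1 was at 1.75 and 1.77 in sdg8 sdg26 and at 1.79 and 2.35 in sdg8. Its difference was -0.31 ± 0.25 with a 95% interval of -0.89 to 0.27. Of 7 floral organ identity genes measured, 0 were called. SHP2, a carpel MADS-box gene that was not well above background in sdg8, had a measured difference of 0.76 ± 0.16 that did not pass the test (limma adjusted p = 0.129).

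The histone methylation and autonomous pathway list had 23 measured members, of which SDG26 alone was called. Leaving SDG26 aside, VRN1, a DNA-binding protein that maintains FLC silencing, had the value -0.41 ± 0.12 (adjusted p = 0.205), and FCA, an RNA-binding repressor of FLC, had 0.22 ± 0.12 (adjusted p = 0.467).

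Several of the largest falls were of transcripts that stood out in sdg8. AT5G37280 was at -9.21 and -9.32 in sdg8 sdg26, against -4.32 and -3.67 in sdg8. Its spots on the sdg8 sdg26, sdg26 and wild-type arrays were not well above background, so that the sdg8 arrays were the only ones with a clear signal. For such a gene the fold is a bound, namely the mean level of the brighter genotype over the higher of the lowest signal that counted as well above background on each array and the gene's own value there. The bound is not strict, because some spots above that lowest signal were still not well above background. RLP43, for example, was at -6.11 and -5.83 on the sdg8 arrays, and neither was well above background. The bound also does not allow for the spread between arrays. On that basis AT5G37280 was at least 8.36-fold lower in sdg8 sdg26 (limma adjusted p = 0.0126).

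Similar levels were seen for AT3G26800 and AT1G06120. AT3G26800 was at -8.78 and -8.92 in sdg8 sdg26, against -4.76 and -5.23 in sdg8, at least 4.16-fold lower (adjusted p = 0.0126). AT1G06120 was at -9.10 and -8.55 in sdg8 sdg26, against -5.16 and -5.22 in sdg8, at least 3.65-fold lower (adjusted p = 0.0314). Both genes were well above background on 1 sdg26 array and on no wild-type array. CLL2, also named EPFL4, encodes a secreted peptide of the epidermal patterning factor family. CLL2 was at -5.27 and -5.99 in sdg8 sdg26, against -2.31 on the 1 sdg8 array that had a value, with sdg26 and wild type between -6.22 and -5.92. Its difference of -3.32 ± 0.31 (adjusted p = 0.0215) thus rests on a single sdg8 array.

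**Figure D2:**
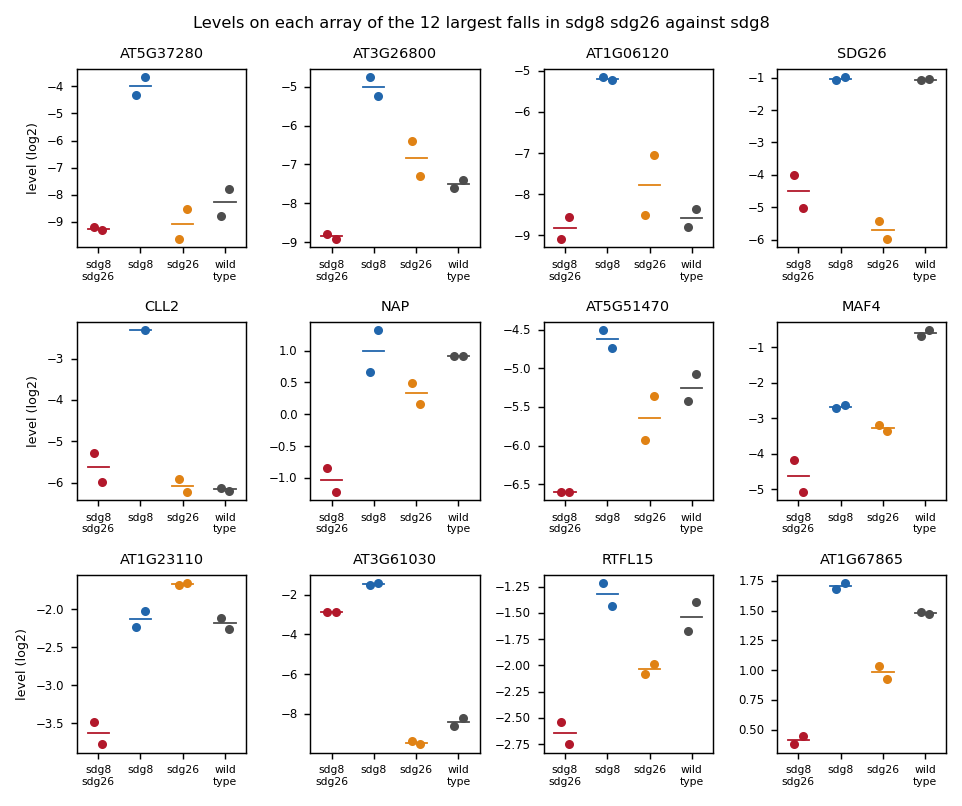
Level of each of the 12 largest falls on each of the 8 arrays (vertical axis, log2 relative to the array's 75th percentile), with 1 point per array and a bar at the mean of sdg8 sdg26, sdg8, sdg26 and wild type from left to right. AT5G37280, AT3G26800, AT1G06120 and CLL2 are highest in sdg8, whereas NAP, AT1G23110 and RTFL15 are lowest in sdg8 sdg26; CLL2 has 1 sdg8 value.

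NAP, a NAC transcription factor known for promoting leaf senescence, fell to -0.85 and -1.22 in sdg8 sdg26, against 0.66 and 1.32 in sdg8. NAP was at 0.49 and 0.17 in sdg26 and at 0.91 and 0.92 in wild type, so that the double mutant lay below all 6 other arrays. The difference was -2.03 ± 0.24 (4.07-fold lower, adjusted p = 0.0314), and a second NAP probe had the same sign. NAP passed in 0 of the 8 fits that leave out 1 array (adjusted p = 0.0511 to 0.0923). RTFL15, of the ROTUNDIFOLIA-like family of small peptides, fell by 1.33 ± 0.16 (adjusted p = 0.0293), with -2.54 and -2.75 in sdg8 sdg26 against -1.21 and -1.43 in sdg8. It no longer passed with the replicate block (limma adjusted p = 0.0658). AT1G23110 was also lowest in the double mutant, at -3.49 and -3.78 against -2.24 and -2.03 in sdg8 (adjusted p = 0.0176).

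AT3G61030 had a different profile. It was at -2.88 on both sdg8 sdg26 arrays, against -1.53 and -1.40 in sdg8, and not well above background on any sdg26 or wild-type array. It fell by 1.42 ± 0.16 (adjusted p = 0.0277) and so was lower in the double mutant than in sdg8, yet measurable only where SDG8 was mutated. The fall of AT3G61030 no longer passed with quantile normalization (limma adjusted p = 0.0859) or with the replicate block (0.0548). AT1G67865 fell by 1.30 ± 0.11 and AT5G51470 by 1.98 ± 0.22, and both were lower on the 2 sdg8 sdg26 arrays than on any of the other 6.

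Among the rises that were measured well above background on all 4 arrays, PP2-A3 changed most. PP2-A3 belongs to the phloem protein 2 family of lectin-like proteins. It was at -2.31 and -2.42 in sdg8 sdg26, against -4.80 and -5.73 in sdg8, a rise of 2.90 ± 0.29 (7.45-fold, limma adjusted p = 0.0176). The sdg26 arrays were at -1.60 and -1.48 and the wild-type arrays at -2.93 and -3.25, so the sdg8 arrays were the lowest of the 8 and those of the double mutant lay between wild type and sdg26.

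AT5G53742 rose to -0.92 and -1.26 in sdg8 sdg26, against -3.74 and -3.47 in sdg8. The other 4 arrays lay between -4.49 and -4.10, so AT5G53742 was high in the double mutant alone. The rise was 2.52 ± 0.18 (5.72-fold, adjusted p = 0.0126). AT5G35375 was at -1.97 and -2.33 in sdg8 sdg26, against -4.73 and -4.70 in sdg8, -6.90 and -6.27 in sdg26, and -7.16 and -7.13 in wild type. AT5G35375 was thus higher in sdg8 than in wild type and higher again in the double mutant, by 2.56 ± 0.22 (adjusted p = 0.0126).

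QQS, an Arabidopsis gene with no homologue in other species that is known to shift the balance between starch and protein, had a profile like that of AT5G35375. QQS was at 2.03 and 1.87 in sdg8 sdg26, -0.33 and 0.16 in sdg8, -4.09 and -3.75 in sdg26, and -4.75 and -4.53 in wild type. It rose by 2.04 ± 0.21 between sdg8 and the double mutant (4.10-fold, adjusted p = 0.0178). QQS and the genes in the rest of this paragraph lie outside the 12 largest rises and were picked after their values were seen. MEE38 rose by 1.77 ± 0.15, with -1.82 and -1.69 in sdg8 sdg26 against -3.42 and -3.63 in sdg8, and its sdg26 and wild-type arrays resembled those of sdg8. AT2G16586 rose by 1.47 ± 0.12, with 2.56 and 2.49 in sdg8 sdg26 against 1.01 and 1.12 in sdg8, and it was likewise high in the double mutant alone. GSTL1, a lambda-class glutathione transferase, rose by 1.42 ± 0.12. AT4G31351 and AT4G31354, which rose by 1.11 ± 0.14 and 1.12 ± 0.13, follow each other in the TAIR10.1 gene order. AT4G31351 passed in 0 and AT4G31354 in 2 of the 8 fits that leave out 1 array. They were the only pair among the 63 genes that lay within 3 places of each other and rose or fell together.

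Of the 45 rises, 25 were of genes that neither sdg8 array measured well above background, a state shared by 3.44% of all genes tested. Such genes entered only by being well above background on both sdg8 sdg26 arrays, so their direction was largely set by the filter. Of the 689 genes in that state 25 rose and 0 fell, and of the 9 in the opposite state 3 fell and 0 rose. These counts therefore say nothing about direction. The lowest level that counted as well above background was -6.90 and -7.21 on the sdg8 sdg26 arrays, against -6.15 and -6.21 on the sdg8 arrays, so detection reached lower levels in the double mutant. For 14 of these 25 genes the double mutant exceeded the bound on sdg8, and for the other 11 it did not, so no fold is given for them. AT1G21528 had the largest such rise, at -3.88 and -3.85 in sdg8 sdg26 against -8.14 and -6.61 in sdg8, at least 4.98-fold higher (adjusted p = 0.0478). AT1G21528 no longer passed with the slide as a random block (adjusted p = 0.0656) or with quantile normalization (adjusted p = 0.0753), and it passed in 1 of the 8 fits that leave out 1 array. ATCHX8, a member of the cation/proton exchanger family that was picked after its values were seen, was at -4.13 and -4.47 in sdg8 sdg26 against -6.39 and -6.56 in sdg8, at least 3.68-fold higher (adjusted p = 0.0126). AT5G53240 was at least 2.20-fold higher, AT1G30170 at least 1.79-fold, AT1G03720 at least 1.75-fold, AT2G18190 at least 1.74-fold, AT1G26921 at least 1.30-fold and AT4G08875 at least 1.01-fold. With normexp on the local background their differences were, in that order, 0.38, 0.003, 0.38, 0.15, -0.11 and -0.13, and none passed. With quantile normalization AT5G53240 (limma adjusted p = 0.124), AT2G18190 (0.0934) and AT4G08875 (0.0859) did not pass, whereas AT1G30170, AT1G03720 and AT1G26921 did. AT4G08875 averaged -6.16 in sdg8 sdg26. That is below the -6.11 and -5.83 of RLP43 in sdg8, which were not well above background, so the 1.01-fold is not firm. PGAZAT, a polygalacturonase of cell wall breakdown, averaged -6.26 in sdg8 sdg26 and -8.46 in sdg8 with an adjusted p of 0.0176, and its bound gave no fold. AT3G06895 was at -2.93 and -3.05 in sdg8 sdg26, against -6.02 and -5.81 in sdg8, where 1 of the arrays was well above background. Restricting the view to 18822 genes well above background on all 4 arrays, 18 had risen and 14 had fallen.

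**Figure D3:**
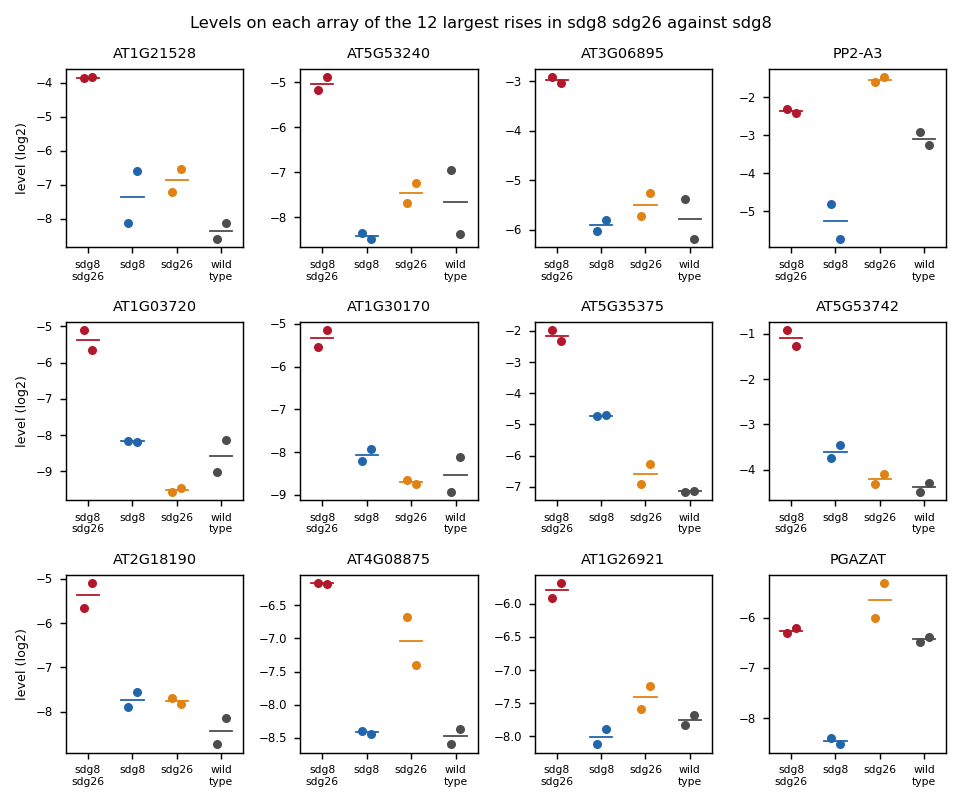
Level of each of the 12 largest rises on each of the 8 arrays (vertical axis, log2 relative to the array's 75th percentile), with 1 point per array and a bar at the mean of sdg8 sdg26, sdg8, sdg26 and wild type from left to right. AT5G53742, AT3G06895 and AT1G03720 are high in sdg8 sdg26 alone, AT5G35375 is highest in sdg8 sdg26 and next highest in sdg8, and PP2-A3 and PGAZAT are low in sdg8 alone.

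Across the 8 arrays the 63 genes fell into several profiles. In 29 genes, 24 rises and 5 falls, the 2 sdg8 sdg26 arrays lay outside the range of the other 6 while the sdg8 arrays did not, as for QQS, MAF4, NAP and AT5G53742. In 19 genes, 12 rises and 7 falls, the sdg8 arrays stood apart and those of sdg8 sdg26 did not, as for PP2-A3, AT5G37280 and CLL2. Both genotypes stood apart, on opposite sides, in 14 genes that include IRT1, MAM3 and GSTL1. SDG26 was the 1 gene with neither, because the sdg26 arrays lay lower than those of sdg8 sdg26 and the wild-type arrays overlapped those of sdg8. With the genes where both stood apart counted in, the sdg8 sdg26 arrays did so in 43 of the 63 and the sdg8 arrays in 33, against 3534 and 2355 of the 20051 genes tested. Because the 63 were chosen on these same arrays, these profiles only describe them.

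Iron uptake genes mostly had positive differences, with 1 of 14 measured members called. That member was IRT1, the main iron transporter of the root epidermis, at -2.71 and -3.11 in sdg8 sdg26 against -4.99 and -5.17 in sdg8. IRT1 was at -3.56 and -3.64 in sdg26 and -3.50 and -3.77 in wild type, so it was lowest in sdg8 and highest in the double mutant. The rise was 2.17 ± 0.17 (4.51-fold, limma adjusted p = 0.0126). It was 1.28 with normexp on the median background of an array (adjusted p = 0.0172) and 0.89 with normexp on the local background, where it did not pass (adjusted p = 0.915). The rise no longer passed without sdg8 replicate 1 (adjusted p = 0.0511) or without sdg8 replicate 2 (adjusted p = 0.0575). The median of the list was 0.58, against 0.04 over all genes, and 13 values lay above 0. The arrays did not overlap in 7 of the 14 members with higher levels and 1 with lower levels, against 27.6% and 18.1% of all genes tested. The median was 1.04 without sdg8 replicate 1 and 0.12 without sdg8 replicate 2.

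BHLH38 and BHLH39, transcription factors of the iron deficiency response that work with FIT, had larger differences and larger errors. BHLH38 was at 0.31 and 0.49 in sdg8 sdg26 against -2.41 and -3.54 in sdg8, a difference of 3.38 ± 0.75 (adjusted p = 0.141). BHLH39 was at -0.25 and 0.13 in sdg8 sdg26 against -2.82 and -4.12 in sdg8, a difference of 3.41 ± 0.92 (adjusted p = 0.187). Both varied widely between replicates elsewhere, as BHLH38 was at 0.86 and -0.65 in sdg26 and at -0.81 and -2.86 in wild type. MYB10, which acts in iron-deficient roots, differed by 1.00 ± 0.17 (adjusted p = 0.0788) and FRO2, the root ferric reductase, by 0.90 ± 0.19 (adjusted p = 0.131). FER1, an iron storage ferritin, had the value -0.38 ± 0.15. NAS2, a nicotianamine synthase outside the list and picked after its values were seen, rose by 1.37 ± 0.17 (adjusted p = 0.0347), with -2.23 and -2.73 in sdg8 sdg26 against -3.85 in both sdg8 arrays, and it passed in 1 of the 8 fits without 1 array.

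Since IRT1 and FRO2 are root genes and the tissue is labelled as aerial, the root markers matter beside them. Of 13 root markers measured, 11 were well above background on all 4 arrays. Their levels summed on the linear scale, where the array's 75th percentile is 1, came to 16.2 and 14.5 in sdg8 sdg26 and 12.9 and 13.4 in sdg8, against 12.7 and 15.2 in sdg26 and 13.0 and 13.8 in wild type. None of the 13 was called, the list median was 0.34 and 12 values lay above 0. Higher levels without overlap were found in 8 of the 13, against 27.6% of all genes tested. WOX5, a marker of the root stem cell niche, differed by 0.69 ± 0.14 (adjusted p = 0.128). RHD6, a root hair factor, was not well above background in sdg8 and at least 1.72-fold higher in sdg8 sdg26 (adjusted p = 0.214). With normexp correction on the local background the median of the root list was -0.04, so its sign was not kept there. The part of root tissue in the IRT1 result was not tested.

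Genes of aliphatic glucosinolate synthesis, which make defence compounds from methionine, had 1 of 16 measured members called. MAM3, the methylthioalkylmalate synthase that lengthens the methionine side chain most, was at -0.87 and -1.02 in sdg8 sdg26 against -2.55 and -2.76 in sdg8. It rose by 1.71 ± 0.16 (3.27-fold, adjusted p = 0.0141), and in sdg26 and wild type it was at -1.05 and -1.38 and at -2.24 and -2.14. The median of the list was 0.38, 15 values lay above 0, and 13 of the 16 members were higher without overlap, against 27.6% of all genes tested. FMOGS-OX1, which oxidises the side chain, differed by 0.59 ± 0.12 (adjusted p = 0.127), BAT5, a bile acid transporter family member of the chloroplast, by 0.56 ± 0.12 (adjusted p = 0.129), and CYP79F1, which makes the aldoxime intermediate, by 0.40 ± 0.12 (adjusted p = 0.218). The regulators MYB28 and MYB29 had values of 0.09 ± 0.15 and 0.24 ± 0.13. Against wild type the median of the same genes was -0.38 in sdg8, a comparison that shares the sdg8 arrays. The related list of methionine and sulfur metabolism had 0 of 15 called and a median of 0.26, and LSU1, a marker of sulfur limitation, led it with 1.17 ± 0.30 (adjusted p = 0.165). Indole glucosinolate synthesis had 0 of 10 called and a median of 0.05.

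Flavonoid and anthocyanin synthesis had no called member among 16 measured, although 15 values lay above 0. The median was 0.69, against 0.04 over all genes, and 13 of the 16 had higher levels without overlap, against 27.6% of all genes tested. PAP2, a MYB activator of the pathway, was at -5.45 and -5.78 in sdg8 sdg26 and not well above background in sdg8, where it measured -7.31 and -7.13. It was at least 1.48-fold higher (adjusted p = 0.0602). LDOX, the anthocyanidin synthase, was at -0.02 and -0.47 in sdg8 sdg26, against -1.54 and -1.12 in sdg8, a difference of 1.08 ± 0.21 (adjusted p = 0.112). TT8, the bHLH partner of the MYB factors, differed by 0.87 ± 0.23 and TT7, the flavonoid 3'-hydroxylase, by 0.77 ± 0.19. CHS, the first enzyme of the pathway, had the value 0.35 ± 0.14. The median of this list in sdg8 against wild type, which shares the sdg8 arrays, was -0.49, and in sdg26 against wild type it was -0.03. Without sdg8 sdg26 replicate 1 the median was 0.38, and without sdg8 sdg26 replicate 2 it was 0.97.

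The salicylate response list had 0 of 14 called and a median of 0.12, but its marker genes PR1 and PR2, which encode antimicrobial proteins, had large values. PR1 was at -5.45 and -5.70 in sdg8 sdg26 and not well above background in sdg8, at least 1.52-fold higher (adjusted p = 0.0539). PR2 was at -3.40 and -4.57 in sdg8 sdg26 against -6.02 and -6.16 in sdg8, a difference of 2.10 ± 0.37 (adjusted p = 0.0880). In sdg26 against wild type the measured differences were also positive and not called, at 1.97 ± 0.39 for PR1 and 1.96 ± 0.37 for PR2 (limma adjusted p = 0.334 and 0.320). In the same list PAD4, a lipase-like regulator of salicylate signalling, had a value of -0.71 ± 0.20. The 16 immune receptors of the NLR class had 0 called and a median of -0.12, and CHS3 had the value 0.81 ± 0.17 (adjusted p = 0.127). The jasmonate list had 0 of 14 called and a median of 0.18.

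Cold and abscisic acid response genes mostly had lower values in the double mutant, with 0 of 17 called. The median was -0.35 and 14 values lay below 0. Without overlap 7 of the 17 members were lower and 0 higher, against 18.1% and 27.6% of all genes tested. Without sdg8 sdg26 replicate 2 the median was -0.12, and without sdg8 replicate 1 it was -0.53. CBF1, a cold-induced activator, was at -1.75 and -1.94 in sdg8 sdg26 against -0.98 and -0.84 in sdg8, a difference of -0.93 ± 0.19 (adjusted p = 0.125). COR15B, a chloroplast cold-protection protein, had -1.24 ± 0.43 (adjusted p = 0.271), ABI2, a phosphatase of abscisic acid signalling, -0.51 ± 0.18 and RAB18, a dehydrin, -0.45 ± 0.18. NCED3, the abscisic acid synthesis enzyme placed in the carotenoid list, had -1.03 ± 0.33 (adjusted p = 0.242). The carotenoid list had 0 of 15 called and a median of -0.07, and heat shock had 0 of 10 called and a median of -0.19.

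Hormone lists had no called members. The medians were -0.11 for 18 auxin response genes, -0.05 for 13 gibberellin genes, -0.10 for 14 brassinosteroid genes and 0.20 for 12 cytokinin response genes. GA2OX2, an enzyme that inactivates gibberellins, came nearest to the threshold with 0.93 ± 0.16 (adjusted p = 0.0806). GH3.3 (AT2G23170), an auxin-conjugating enzyme, had 0.61 ± 0.12 (adjusted p = 0.126). Photosynthesis had 0 of 24 called and a median of -0.13, cell cycle 0 of 17 and 0.09, circadian clock 0 of 12 and 0.07, and rapid stress and touch response 0 of 16 and 0.06. ELF4, a component of the evening complex of the clock, had the value 1.21 ± 0.40 (adjusted p = 0.252).

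Seed maturation markers had a median of 0.85 with 0 of 14 called, and their levels differed within genotypes as much as between them. Their summed linear level was 7.96 and 2.08 in sdg8 sdg26, 1.39 and 4.08 in sdg8, 1.53 and 3.13 in sdg26, and 17.4 and 3.18 in wild type. SESA2, a seed storage albumin, was at -0.27 and -2.53 in sdg8 sdg26 and at -5.80 and -2.14 in sdg8, so the arrays overlapped. Without sdg8 sdg26 replicate 1 the median of the list was -0.17.

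**Figure D4:**
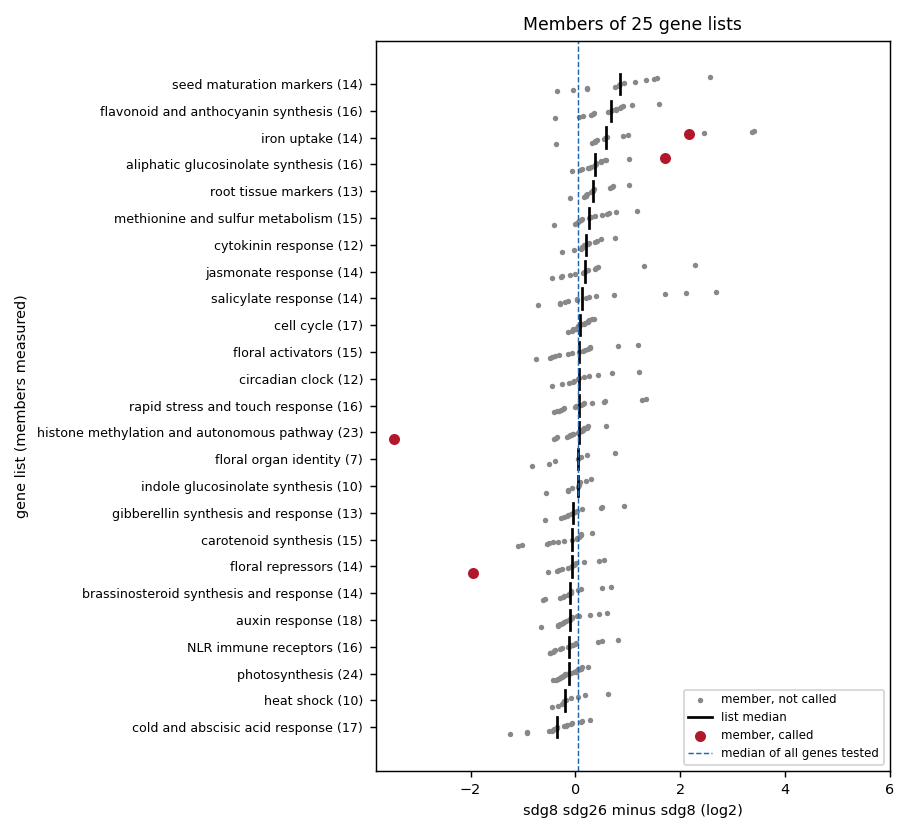
Difference between sdg8 sdg26 and sdg8 (horizontal axis, log2) for the measured members of 25 gene lists (vertical axis, number of members in brackets), where grey points are members that were not called, red points are called members, black bars are list medians and the dashed line is the median of all genes. The called members are IRT1, MAM3, MAF4 and SDG26, and the flavonoid, iron uptake and seed lists have the highest medians.

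The series also allows the sdg26 mutation to be read where SDG8 is present, as sdg26 minus wild type, in arrays that sdg8 sdg26 minus sdg8 does not use. That comparison called 2 of 20051 genes (0.00997%), SDG26 and MRD1, both lower. The difference between the sdg26 effects in the 2 backgrounds, the interaction, was called for 1 gene (0.00499%), and 870 genes had an unadjusted p under 0.05, where 1003 would by the threshold alone. The 2 comparisons share no array, but the sdg8 sdg26 and sdg26 arrays all lay on the same slide, so that slide and the sdg26 mutation cannot be told apart in either. Of the 45 genes that rose in sdg8 sdg26 against sdg8, 36 had a positive value in sdg26 against wild type, with a median of 0.44. Of the 18 that fell, 14 had a negative value, with a median of -0.36. Over all genes tested the sign was shared by 64.8%, and the differences correlated across genes at r = 0.36, a description in which genes are not independent replicates.

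Several genes had large interactions that did not pass the test, such as AT3G26800 with -4.49 ± 0.42 (limma adjusted p = 0.118) and AT5G53742 with 2.33 ± 0.25 (0.129). IRT1, with a smaller interaction, did not pass either. The IRT1 difference was 2.17 in sdg8 sdg26 against sdg8 and 0.03 ± 0.17 in sdg26 against wild type. Its interaction of 2.14 ± 0.25 had an adjusted p of 0.129. CLL2 had an interaction of -3.41 ± 0.40 (adjusted p = 0.187). MAF4 moved the same way in both, by -1.96 and by -2.68 ± 0.27 (adjusted p = 0.0666 in sdg26 against wild type). Its interaction was 0.72 ± 0.38.

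MRD1, named for its low transcript in the methionine-accumulating mto1 mutant, was the gene with a called interaction. It was at -3.14 and -3.54 in sdg8 sdg26 and at -3.39 and -3.37 in sdg8, against -4.47 and -4.19 in sdg26 and -0.52 and -0.41 in wild type. All 3 mutant genotypes were thus far below wild type, and sdg8 sdg26 and sdg8 overlapped. The sdg26 difference was 0.04 ± 0.17 with SDG8 mutated (95% interval -0.36 to 0.45) and -3.86 ± 0.17 with SDG8 present (adjusted p = 0.00151). The interaction was 3.90 ± 0.24 (limma adjusted p = 0.0156). It no longer passed without sdg8 replicate 1 (0.0883), sdg26 replicate 1 (0.0585), wild-type replicate 1 (0.0609) or wild-type replicate 2 (0.0759), all of these adjusted p.

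**Figure D5:**
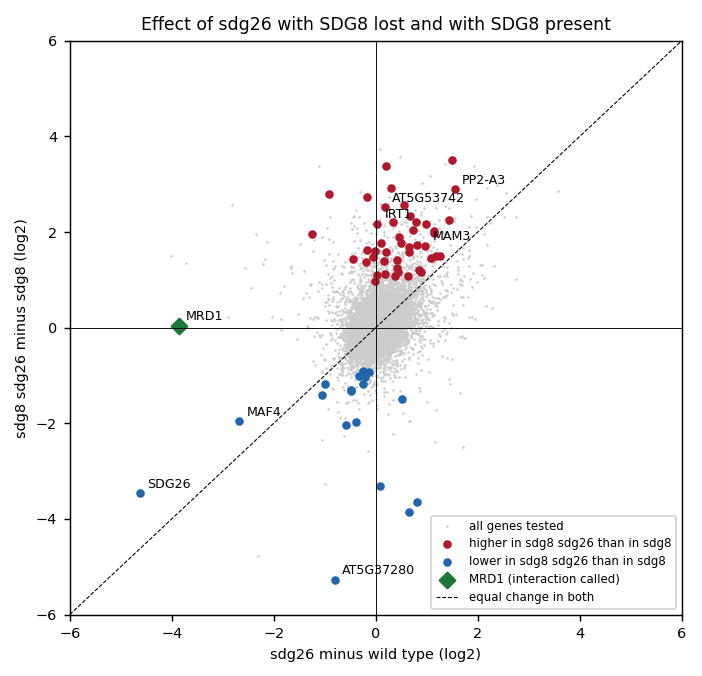
Effect of sdg26 in the sdg8 mutant (vertical axis, sdg8 sdg26 minus sdg8, log2) against its effect where SDG8 is present (horizontal axis, sdg26 minus wild type, log2) for the 20051 genes tested. Red and blue points are the 45 genes that rose and the 18 that fell in sdg8 sdg26; SDG26 and MAF4 are low on both axes, and MRD1 (green diamond) is low on the horizontal axis only.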

How the data were processed

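Cy3-labelled cRNA of 8 samples was hybridised to 1-colour Agilent arrays, 2 per genotype, per the labels; the labels do not say that the 2 came from separate cultures, so p-values measure the spread between these samples. The authors' Feature Extraction software (version 11.5.1.1 per the file headers, 9.1 per the submitters' processing notes) made the deposited spot intensity values, of which the processed signal is background-subtracted per the file headers. A table of log2 values deposited by the authors differed from the values used here by 1 constant per array (medians -0.0103 to -0.0067; column medians -2.37 to -2.29); its scale, centring and direction followed from that match, and the software behind it is not stated in the sources used here.

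Log2 of the processed signal minus the array's 75th percentile was computed over 43803 non-control spots, 0 of them saturated, with outlier spots set to missing and spots of a probe averaged. RefSeq transcript accessions were present for 36098 probes; 34285 of these were found in the TAIR10.1 table of genes, and 9318 probes had no gene. Where several kept probes served a gene (5900 genes), that of highest mean signal was used; 112 tested genes had a missing value, and 2 genes without any value in a genotype were dropped. Differences were tested two-sided with limma 3.58.1 in R 4.3.3 over 4 genotypes (residual degrees of freedom 4, prior 3.08), and the steps were tested on simulated data. The median standard error of 0.165 and the number of arrays limit the precision.

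The members, 25 gene lists (401 genes, 368 measured) and comparisons were chosen with earlier results of these data known. Named were SDG8, SDG26, FLC, SOC1 and FT, the 12 rises and 12 falls of largest size among called genes whose arrays did not overlap, the members with the smallest p in every list (up to 4), and up to 6 called interactions in each direction; some further list members are named for their role. Some list names were corrected to current symbols after the files were read. The files hold no mean signal, so the normexp alternatives used the median signal.

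Alternatives were the deposited table, quantile normalization, 2 normexp corrections (offset 50), 3 other filters, only the 4 arrays, the replicate number or the slide as a block, the mean of a gene's probes, and each array left out. Slide and scan had the same grouping. The slide block cannot take slide out of sdg8 sdg26 against sdg8, because both arrays of each of these genotypes shared a slide.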

Additional observations from a re-analysis of the deposited data

Results flagged for a closer look

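MRD1 was listed because the sdg26 effect differed between the 2 backgrounds by a test of the difference itself. The interaction was 3.90 ± 0.24 on the log2 scale (limma adjusted p = 0.0156), with an sdg26 difference of 0.04 in the sdg8 background and -3.86 where SDG8 is present. Its adjusted p ranged from 0.00494 to 0.989 over the alternatives, and it was 0.100 with a replicate block, 0.122 with no filter on dim probes and 0.989 with normexp on the local background. No group held the 4 samples needed to look for single outlying arrays.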

How the results depend on the processing

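The count of 63 genes in sdg8 sdg26 against sdg8 was 63 with the deposited log2 values, 50 with quantile normalization, 60 with the mean of a gene's probes, 58 with a filter over any of the 4 genotypes, 53 with the slide as a random block and 48 with the replicate block. It was 0 with normexp on the local background (1833 genes at an unadjusted p under 0.05), 0 with no filter on dim probes (4033), 115 with normexp on the median background of an array, 26 when all 4 arrays had to be well above background and 20 with only the 4 arrays compared. Leaving out 1 array gave 2 to 98. The interaction count of 1 was 4 with quantile normalization, 4 with normexp on the median background, 0 with normexp on the local background, no filter or the replicate block, and 0 to 4 without 1 array. The sdg26 count of 2 was 4 with quantile normalization, the all-array filter or the mean of probes, 6 with normexp on the median background, 0 with normexp on the local background, and 1 to 5 without 1 array. With normexp on the local background 15 of the 63 genes changed sign: AT4G08875 (-0.13), AT1G26921 (-0.11), PGAZAT (-0.30), AT4G37420 (-0.27), AT5G37140 (-0.17), EXL6 (-0.47), UNE17 (-0.31), AT5G44590 (-0.43), AT1G73066 (-0.30), AT4G16930 (-0.38), AT5G25425 (-0.27), AT3G18250 (-0.13), AT1G19550 (-0.35), GT13 (-0.40) and AT2G24810 (-0.44). None of these genes was well above background on either sdg8 array. The highest local background of a spot was, in replicates 1 and 2, 501 and 102.5 in sdg8 sdg26 and 5363 and 350 in sdg8. It was 76 and 229880 in sdg26 and 23118 and 4905 in wild type. The cause of the sign changes was not tested. Of the 63 genes, 39 were kept with quantile normalization, 28 with normexp on the median background, 35 with the replicate block, 53 with the slide block (correlation 0.0548) and 15 in none of the 8 fits without 1 array. Deviations of same-numbered arrays correlated at -0.42 to -0.17 between sdg8 sdg26 and each other genotype (-0.39 with sdg8) and at 0.18 to 0.41 among the other genotypes, so the numbers were not taken as pairs. With a crossed replicate block, chosen after seeing the data, the counts were 333, 4 for the interaction and 22 for sdg26 against wild type. Low signal in sdg8 limits 25 of the 45 rises to bounds or to no fold.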
